A study of Mus musculus with 6 samples.

Results

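The genes described here are 46 genes of DNA replication and S phase, measured in mouse granulocytes with and without caffeine during a block of transcription. They were taken from a list of named genes, each represented by the brightest probe set annotated to that gene alone, and all 46 were measured among 19937 genes in all. RNA from granulocytes of the C57BL/6J mouse strain was hybridised to 6 Affymetrix Mouse Gene 1.0 ST arrays, 3 labelled caffeine-plus and 3 labelled caffeine-minus. Per the labels' protocols, cells of both plates were first held in 15 mM caffeine for 4 hours and washed 2 times. For the following 4 hours the caffeine-plus plate received 2 µg/ml actinomycin D, which blocks transcription, with caffeine, and the caffeine-minus plate received actinomycin D alone. The source label of the caffeine-minus samples nevertheless calls them not treated with caffeine. The series asks which transcripts accumulate when nonsense-mediated decay is inhibited, for which caffeine was used. No separate animals or cultures are named for the replicates, so the p-values rest on array-to-array spread that could be technical alone. Rises and falls below are differences of the caffeine-plus from the caffeine-minus arrays. None of the 6 arrays is from before the block, so change over time was not measured.

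Replication starts at origins, which the origin recognition complex (ORC) marks and where Cdc6 and Cdt1 load the ring of Mcm2 to Mcm7. Cdc45 and the GINS complex turn this ring into the active helicase. Primase and DNA polymerase alpha then start each strand, and polymerases delta and epsilon extend it on the sliding clamp Pcna, which replication factor C (RFC) loads. Most of these genes are transcribed through E2F factors in cycling cells. In granulocyte development they belong to the dividing precursors, and mature granulocytes have left the cell cycle.

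Across probe sets, Pearson's r was 0.986 to 0.992 between arrays of the same group and 0.959 to 0.965 between arrays of different groups. Granulocyte transcripts were present: S100a9 had a mean log2 value of 11.87 in the caffeine-plus and 12.18 in the caffeine-minus arrays, against array medians of 6.49 to 6.60, and the precursor gene Mpo had 12.59 and 12.97. The neutrophil surface gene Ly6g was closer to the array medians, at 7.15 and 7.69. Among defining genes of other cells, those of T cells lay below the array medians, such as Cd3e (5.96 and 6.07). Erythroid and B cell genes were mixed: Klf1 (5.79 and 5.75) and Ms4a1 (4.24 and 4.27) were below the medians, while Alas2 (6.69 and 7.34) and Cd79b (6.54 and 8.26) were above them in the caffeine-minus arrays. The 6 measured monocyte genes were above the medians in the caffeine-minus arrays, such as Ly86 (8.77 and 10.19), Csf1r (7.78 and 8.77) and Ccr2 (6.45 and 8.03). The progenitor gene Cd34 was above them in both groups (9.70 and 10.84). These markers moved between the groups as well. For comparison, 16.2% of all 19937 genes rose with caffeine and 21.7% fell (limma, Benjamini-Hochberg adjusted p under 0.05). Those shares are not matched for the level of the markers. Of 12 granulocyte markers 11 were lower in the caffeine-plus arrays and none was higher (mean log2 level of the list 9.25 to 9.33 against 9.78 to 9.94). Of 8 markers of early granulocyte precursors 7 were lower (9.59 to 9.62 against 10.25 to 10.34), and of 6 monocyte and macrophage markers all 6 were lower (7.39 to 7.43 against 8.21 to 8.44). In 5 stem and progenitor markers 2 were higher and 2 lower (8.77 to 8.84 against 8.92 to 9.01), in 9 B cell markers 3 were lower (5.88 to 6.06 against 6.20 to 6.39), in 7 erythroid markers 1 was lower (6.32 to 6.39 against 6.42 to 6.54), and of 7 T and NK cell markers none passed by limma, 1 of them at an unadjusted p under 0.05 (5.21 to 5.53 against 5.32 to 5.42). Their part in the results below was not tested. In bulk RNA, fewer cells of a type and less RNA per cell cannot be told apart.

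The replication genes moved apart rather than together. With caffeine, 14 of the 46 were higher and 10 were lower (limma, Benjamini-Hochberg adjusted p under 0.05 over all genes), and 22 did not pass. The rises made up 30.4% of the list against 16.2% of all 19937 genes, and the falls 21.7% against 21.7%. The shares over all genes include dim genes and are not matched for level. All 46 members were above the median gene level. When only the 9968 genes above it were fitted, 3070 were higher and 3496 lower, beside 15 and 12 of the 46 members. In that fit the members' share of rises was close to that of all genes fitted. Their share of falls was smaller. In either direction 37.9% of all genes passed. The median log2 difference of the list was 0.05, beside -0.04 over all genes. Gmnn, the gene of geminin, an inhibitor of origin licensing, had the largest rise (2.68-fold), and Tyms, the gene of thymidylate synthase, had the largest fall (1.83-fold lower). Gmnn was the 1 member that differed by at least 2-fold, while 9 of the rises and 4 of the falls were of at least 1.5-fold. None of the 24 genes that passed had overlapping groups. Over the whole list the caffeine-plus arrays lay entirely above the caffeine-minus arrays in 17 genes (19.5% of all genes) and entirely below in 14 (26.3% of all genes).

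**Figure D1:**
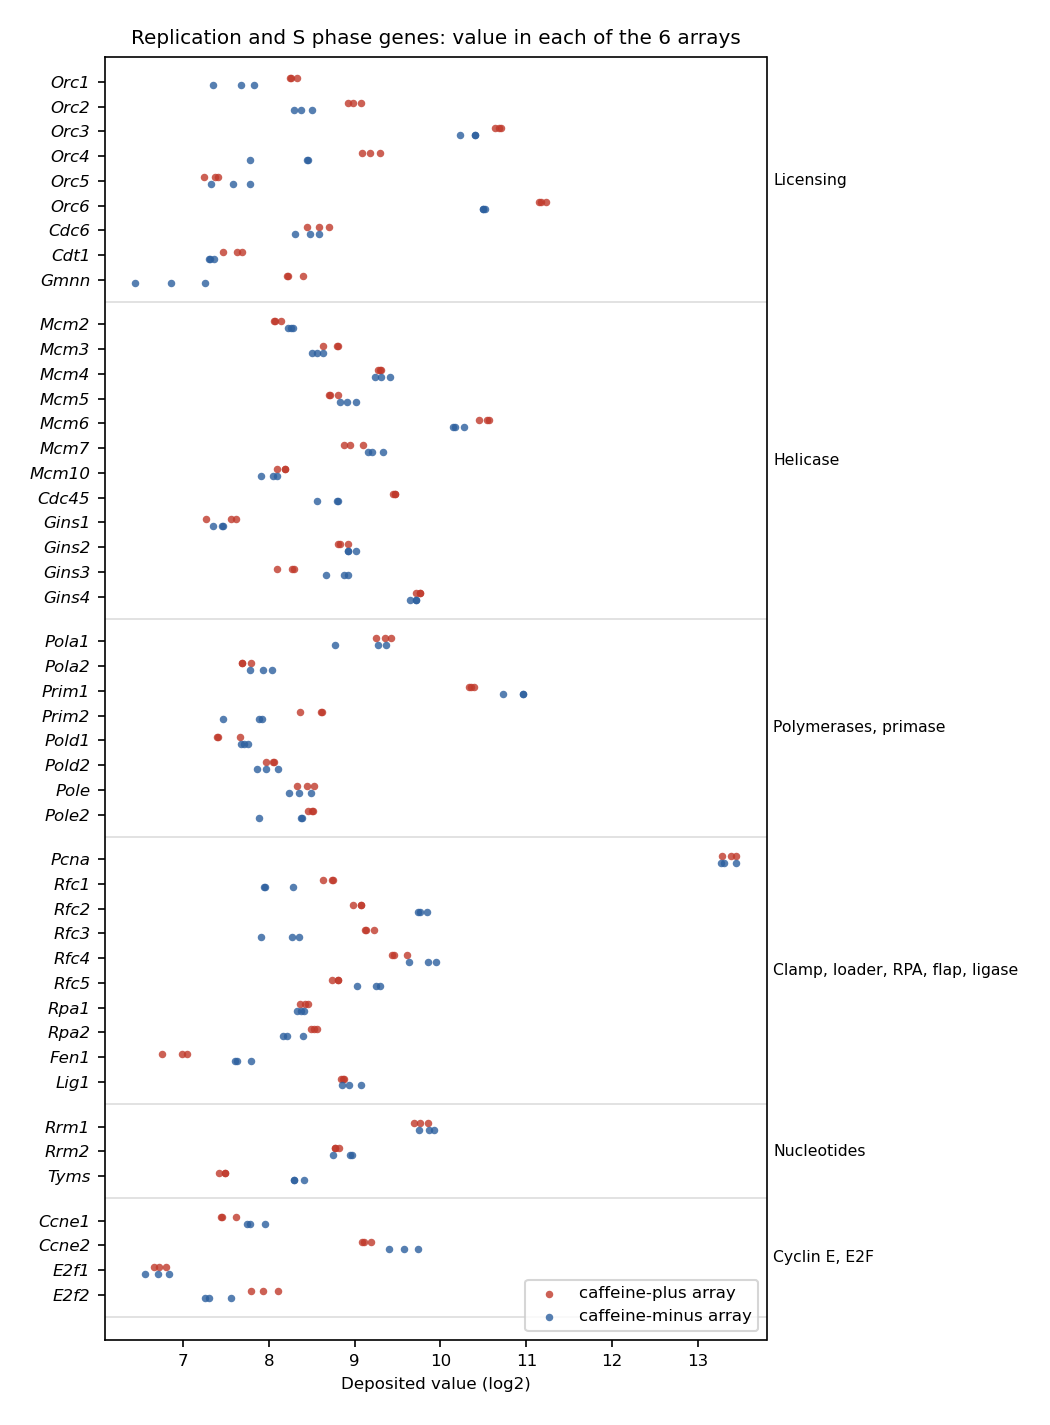
Deposited log2 value of each of the 46 genes (rows, grouped by role) in each of the 6 arrays, with caffeine-plus arrays in red and caffeine-minus arrays in blue. The groups lie apart in genes such as Gmnn (8.21 to 8.40 against 6.44 to 7.26) and Tyms (7.42 to 7.49 against 8.29 to 8.41), and overlap in Pcna and E2f1.

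The spread between arrays was larger without caffeine. In 34 of the 46 genes (73.9%) the SD was larger over the caffeine-minus arrays, as it was in 60.5% of all genes, with a median SD of 0.11 against 0.06, while over all genes the medians were 0.11 and 0.09. Caffeine-minus array 3 was the lowest of its group in 31 of the 46 genes and lay 0.11 below the group mean on average. Without that array 14 members were higher and 12 lower, the added falls being Orc5 and Mcm5. In the plots by gene this array is the low blue point of Orc4, Pole2 and Pola1.

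Promoter sequence is shown because E2F sites are the feature that replication genes are known to share. RefSeq windows of assembly GRCm38.p6, from 250 bases before to 50 bases after the start, were found for 37 of the 46 genes. They were searched on both strands for 4 forms of the E2F site, TTTGGCGC, TTTCGCGC, TTTCCCGC and GGCGGGAA, of which the last 2 overlap when one is read on the other strand. A form was found in 19 of the 37 (51.4%), against 875 of 15613 tested genes with a window (5.6%) and 3.49% of all windows in the table. Among genes that were higher 7 of 12 had a form, among those lower 4 of 8, and among those that did not pass 8 of 17. The CCAAT box, also searched on both strands as CCAAT, was in 10 of 12, 3 of 8 and 10 of 17, against 41.7% of all tested genes with a window. A match describes letters in the window and is not a measured site. The windows below are 300 bases each, 5′ to 3′ on the gene's strand, with E2F forms in capitals. Rfc3 and Tyms are the largest rise and fall with a window in the table, and the other 4 were chosen after their values were seen, to show genes with a form that rose (Mcm6 and Orc1) and that fell (Prim1 and Gins3).
Rfc3 (higher, chr5:151651159-151651458, minus strand): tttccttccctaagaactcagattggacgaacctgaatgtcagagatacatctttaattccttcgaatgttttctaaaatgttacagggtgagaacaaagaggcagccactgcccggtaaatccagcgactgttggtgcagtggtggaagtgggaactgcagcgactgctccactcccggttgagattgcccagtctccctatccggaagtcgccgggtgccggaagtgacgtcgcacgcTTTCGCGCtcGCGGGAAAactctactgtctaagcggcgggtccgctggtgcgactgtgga
Mcm6 (higher, chr1:128359656-128359955, minus strand): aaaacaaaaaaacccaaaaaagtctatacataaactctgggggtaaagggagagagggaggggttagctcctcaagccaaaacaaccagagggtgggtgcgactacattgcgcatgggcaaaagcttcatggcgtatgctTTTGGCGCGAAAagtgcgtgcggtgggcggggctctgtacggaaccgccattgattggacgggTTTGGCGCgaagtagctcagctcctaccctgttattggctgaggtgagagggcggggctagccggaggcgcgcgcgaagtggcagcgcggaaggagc
Orc1 (higher, chr4:108579204-108579503, plus strand): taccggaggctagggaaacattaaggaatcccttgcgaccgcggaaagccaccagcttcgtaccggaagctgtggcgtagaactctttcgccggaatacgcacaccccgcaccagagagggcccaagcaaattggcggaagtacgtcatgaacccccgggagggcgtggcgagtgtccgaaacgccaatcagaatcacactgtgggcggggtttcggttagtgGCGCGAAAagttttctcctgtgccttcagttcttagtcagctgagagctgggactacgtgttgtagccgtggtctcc
Tyms (lower, chr5:30073576-30073875, minus strand): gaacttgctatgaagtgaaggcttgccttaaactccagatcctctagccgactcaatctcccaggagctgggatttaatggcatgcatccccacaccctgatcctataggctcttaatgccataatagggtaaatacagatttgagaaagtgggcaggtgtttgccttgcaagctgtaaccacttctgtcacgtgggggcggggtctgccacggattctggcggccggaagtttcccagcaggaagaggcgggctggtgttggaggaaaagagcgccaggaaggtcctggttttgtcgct
Prim1 (lower, chr10:128014965-128015264, plus strand): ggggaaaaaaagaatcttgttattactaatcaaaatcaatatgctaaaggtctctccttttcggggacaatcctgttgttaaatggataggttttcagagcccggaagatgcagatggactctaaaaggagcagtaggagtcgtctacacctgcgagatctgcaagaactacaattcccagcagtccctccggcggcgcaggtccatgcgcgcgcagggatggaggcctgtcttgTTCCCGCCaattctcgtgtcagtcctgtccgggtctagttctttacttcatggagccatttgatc
Gins3 (lower, chr8:95633309-95633608, plus strand): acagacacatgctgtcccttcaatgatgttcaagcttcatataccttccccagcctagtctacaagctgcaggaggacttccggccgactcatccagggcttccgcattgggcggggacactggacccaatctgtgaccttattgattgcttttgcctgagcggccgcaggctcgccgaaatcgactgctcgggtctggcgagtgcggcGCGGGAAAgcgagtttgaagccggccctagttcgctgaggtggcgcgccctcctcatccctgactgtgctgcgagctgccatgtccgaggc
Rfc3 carried 2 forms next to each other at the start, Mcm6 carried 3, of which 2 overlap, and Orc1, Prim1 and Gins3 carried 1 each, while the Tyms window held none of these letters. Because 4 of the windows were chosen to show both directions, the list is described by the counts above and not by these windows.

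Genes of origin licensing were the role in which most members rose. Of 9 such genes 7 were higher (77.8%, against 16.2% of all genes) and none was lower (21.7% of all genes), with a median log2 difference of 0.60. Those shares of all genes are not matched for level. When only the 9968 genes above the median level were fitted, 3070 were higher and 3496 lower. In the ORC itself 5 of 6 subunit genes were higher. Orc4 had log2 values of 9.09, 9.18 and 9.29 in the caffeine-plus arrays and 8.46, 8.44 and 7.78 in the caffeine-minus arrays, a 1.94-fold rise (log2 difference 0.96 ± 0.14 SE, n = 3 per group, limma adjusted p = 3.2e-05). The groups did not overlap, and caffeine-minus array 3 was well below the other caffeine-minus arrays. Orc6, whose protein is the smallest and most loosely held part of the complex, had the smallest p of all members. Its values were 11.15, 11.23 and 11.17 with caffeine against 10.52, 10.50 and 10.50 (0.68 ± 0.05, limma adjusted p = 3.4e-08). Both groups were tight, and the gap between them was much wider than their spread.

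Orc1, whose protein is the ATPase subunit that is renewed each cell cycle, had values of 8.26, 8.33 and 8.25 with caffeine and 7.83, 7.67 and 7.35 without it (0.67 ± 0.11, limma adjusted p = 9.4e-05). Orc2 had 8.92, 9.07 and 8.98 against 8.50, 8.38 and 8.29 (0.60 ± 0.08, limma adjusted p = 1.5e-05). Every caffeine-plus array was above every caffeine-minus array for both genes. Orc3 had a smaller rise, with 10.71, 10.63 and 10.68 against 10.40, 10.40 and 10.23 (0.33 ± 0.06, limma adjusted p = 0.00036). Orc5 stood apart from the other subunits: it differed by -0.22 ± 0.11 and did not pass (limma adjusted p = 0.15), with values of 7.24 to 7.41 and 7.32 to 7.78 that overlapped. Without caffeine-minus array 3 it was lower (-0.34, limma adjusted p = 0.011). In the reference annotation the spans of Orc1, Orc3 and Orc4 overlap those of other protein-coding genes (Prpf38a, Akirin2 and Rars2, and Acvr2a and Mbd5), so signal shared with a neighbour cannot be told apart there.

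Gmnn and Cdt1 encode an inhibitor and the loading factor that it binds, and both were higher. Gmnn had log2 values of 8.40, 8.22 and 8.21 in the caffeine-plus arrays and 6.44, 7.26 and 6.86 in the caffeine-minus arrays (1.42 ± 0.15, limma adjusted p = 1.2e-06). The caffeine-minus arrays spread over 0.82 and still lay below all caffeine-plus arrays. Cdt1 had 7.69, 7.63 and 7.46 against 7.36, 7.31 and 7.30 (0.27 ± 0.09, limma adjusted p = 0.027). Cdt1 no longer passed when caffeine-plus array 1 was left out (limma adjusted p = 0.15), nor without caffeine-plus array 2 (0.1) or caffeine-minus array 2 (0.066), nor when every probe set was tested (0.054), with a range of 0.0052 to 0.15 over 16 alternatives. Cdc6, the ATPase that loads the Mcm ring together with Cdt1, differed by 0.12 ± 0.09 and did not pass (limma adjusted p = 0.38), its arrays overlapping at 8.45 to 8.70 and 8.31 to 8.58.

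**Figure D2:**
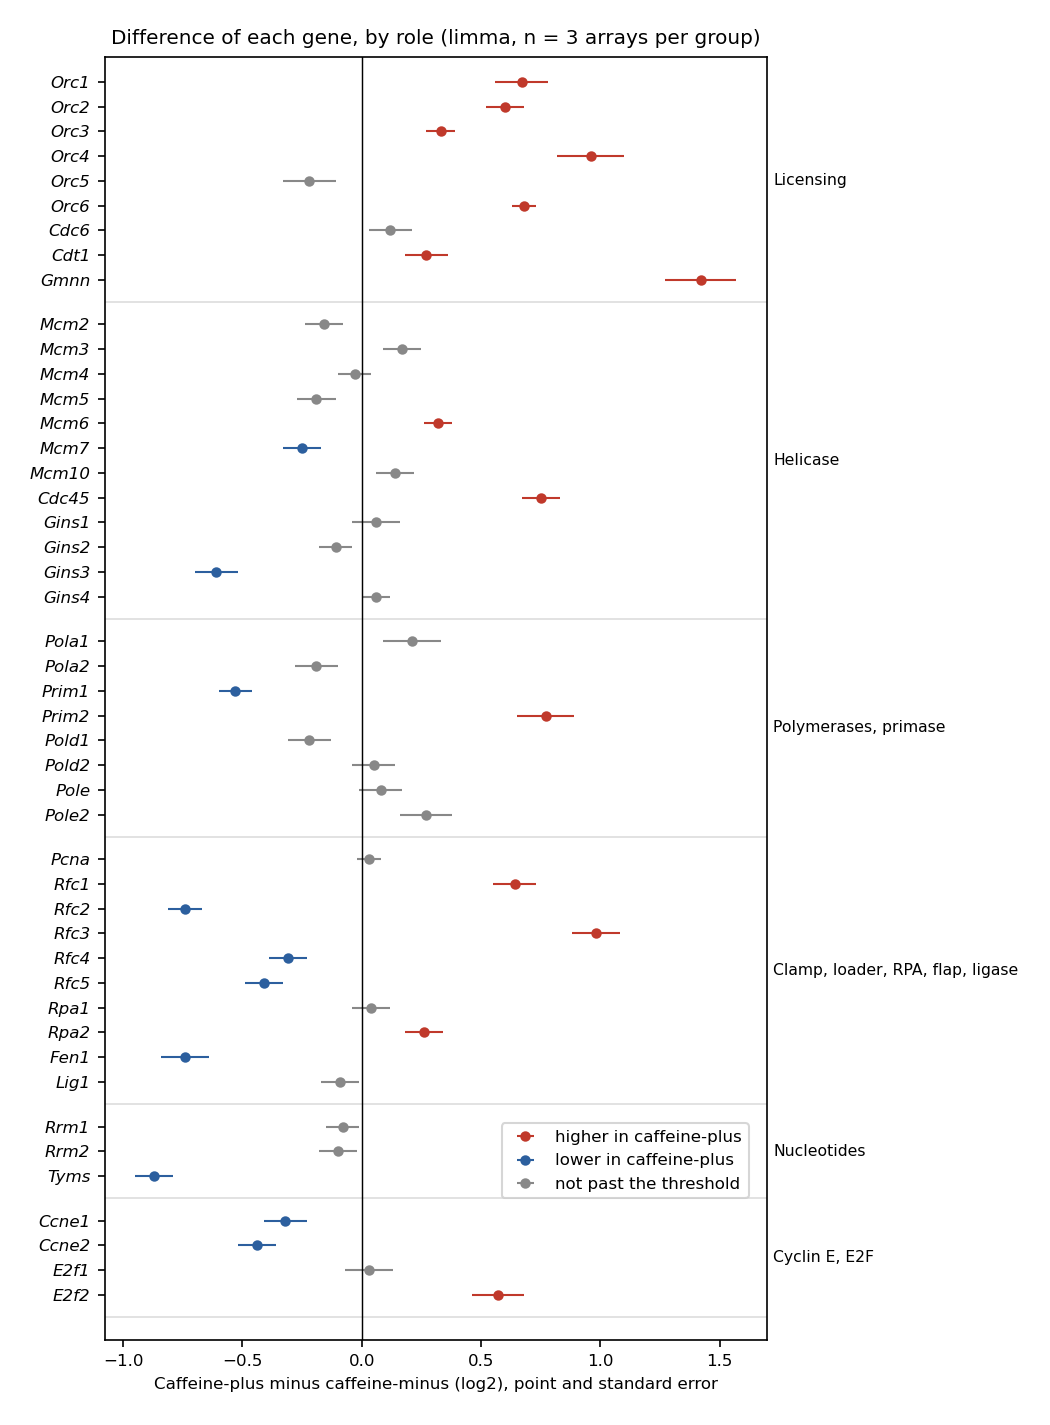
Difference between caffeine-plus and caffeine-minus arrays on the log2 scale for each gene (points, with the standard error as bars), ordered by role and coloured by the limma call. Licensing genes lie mostly on the right, from 0.27 to 1.42 for the 7 that were higher, while the clamp loader genes lie on both sides, from -0.74 (Rfc2) to 0.98 (Rfc3).

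Helicase genes were mostly near 0, with a median log2 difference of 0.01. Of the 12, 2 were higher and 2 lower (16.7% each), beside 16.2% and 21.7% of all genes, which are not matched for level. When only the 9968 genes above the median level were fitted, 3070 were higher and 3496 lower. Both are larger shares than those of the helicase genes in that fit, where Mcm5 was lower too. Cdc45, the helicase cofactor, had values of 9.47, 9.45 and 9.47 with caffeine and 8.80, 8.79 and 8.56 without it (0.75 ± 0.08, limma adjusted p = 9.5e-07). The caffeine-plus arrays were almost identical and clearly above the others, and the span of Cdc45 overlaps that of Ufd1. Gins3, a subunit of the GINS complex, went the other way, with 8.29, 8.27 and 8.09 against 8.87, 8.92 and 8.67 (-0.61 ± 0.09, limma adjusted p = 3.2e-05). Its groups did not overlap. The other GINS genes did not pass: Gins1 differed by 0.06 ± 0.10, Gins2 by -0.11 ± 0.07 and Gins4 by 0.06 ± 0.06, the last at -0.05 after quantile normalization. Gins2 was lower after quantile normalization (limma adjusted p = 0.042).

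The 6 genes of the Mcm ring, whose proteins work in equal numbers, had a median log2 difference of -0.10. Of these 1 was higher and 1 lower (16.7% each, against 16.2% and 21.7% of all genes, which are not matched for level). Mcm6 had 10.45, 10.56 and 10.54 against 10.28, 10.17 and 10.15 (0.32 ± 0.06, limma adjusted p = 0.00046). Mcm7 had 8.95, 9.10 and 8.87 against 9.33, 9.20 and 9.15 (-0.25 ± 0.08, limma adjusted p = 0.020). The groups did not overlap for either gene. Mcm7 no longer passed when caffeine-plus array 1 was left out (limma adjusted p = 0.076), nor without caffeine-plus array 3 (0.11) or caffeine-minus array 1 (0.081), nor with arrays centred on their medians (0.11), without the intensity trend (0.056) and when every probe set was tested (0.063), with a range of 0.00059 to 0.11 over 16 alternatives. The span of Mcm7 also overlaps Ap4m1. The remaining ring genes did not pass: Mcm2 differed by -0.16 ± 0.08, Mcm3 by 0.17 ± 0.08, Mcm4 by -0.03 ± 0.07 (0.03 with arrays centred on their medians) and Mcm5 by -0.19 ± 0.08. Mcm5 was lower without caffeine-minus array 3 (limma adjusted p = 0.018), after quantile normalization (0.0037) and in the brighter genes, those above the median level (0.045). Mcm10, an initiation factor that joins the helicase, differed by 0.14 ± 0.08 (limma adjusted p = 0.23).

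Primase has a catalytic and a large subunit, and their genes moved in opposite directions. Prim1, the catalytic subunit, had log2 values of 10.36, 10.39 and 10.33 in the caffeine-plus arrays and 10.96, 10.96 and 10.73 in the caffeine-minus arrays (-0.53 ± 0.07, limma adjusted p = 7.4e-06). Prim2, the large subunit, had 8.61, 8.62 and 8.36 against 7.89, 7.92 and 7.47 (0.77 ± 0.12, limma adjusted p = 4.8e-05). Neither gene had overlapping groups. Within each array, the ratio of Prim2 to Prim1 was higher by 1.29 on the log2 scale with caffeine. No polymerase subunit gene of the list passed: the catalytic subunit genes Pola1, Pold1 and Pole differed by 0.21 ± 0.12, -0.22 ± 0.09 and 0.08 ± 0.09, and the accessory subunit genes Pola2, Pold2 and Pole2 by -0.19 ± 0.09, 0.05 ± 0.09 and 0.27 ± 0.11. Of these 6, 3 had an unadjusted p under 0.05. Some passed without 1 array: Pola1 (limma adjusted p = 0.046) and Pole2 (0.027) without caffeine-minus array 1, Pola2 (0.043) and Pole2 (0.042) without caffeine-minus array 2, and Pold1 (0.032) without caffeine-plus array 1. Pole2 also passed with the replicate number as a block (limma adjusted p = 0.035), with centred arrays (0.045) and among genes above the median level (0.046), where Pold1 passed too (0.048).

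All 5 subunit genes of replication factor C passed, as both primase genes did, with 2 higher and 3 lower. Of all genes 37.9% passed in either direction, a share that is not matched for level. When only the 9968 genes above the median level were fitted, 3070 were higher and 3496 lower. Rfc3 had values of 9.22, 9.13 and 9.12 with caffeine and 8.27, 8.35 and 7.91 without it (0.98 ± 0.10, limma adjusted p = 8.6e-07). Rfc1, the large subunit, had 8.73, 8.75 and 8.63 against 8.28, 7.94 and 7.96 (0.64 ± 0.09, limma adjusted p = 4.0e-05). Both genes were higher in all 3 caffeine-plus arrays than in any caffeine-minus array. Rfc2 had 9.07, 9.07 and 8.98 against 9.84, 9.76 and 9.74 (-0.74 ± 0.07, limma adjusted p = 1.8e-07). Rfc5 had 8.81, 8.81 and 8.73 against 9.03, 9.30 and 9.25 (-0.41 ± 0.08, limma adjusted p = 0.00064). The genes of these small subunits, Rfc2 and Rfc5, were lower without overlap. Rfc4 had 9.46, 9.61 and 9.44 against 9.95, 9.86 and 9.63 (-0.31 ± 0.08, limma adjusted p = 0.0066), with caffeine-plus array 2 close below caffeine-minus array 3, and its span overlaps Eif4a2. The within-array ratio of Rfc3 to Rfc2 rose from between -1.83 and -1.41 without caffeine to between 0.06 and 0.16 with it, a shift of 1.72. All 5 calls held under the 16 alternatives.

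**Figure D3:**
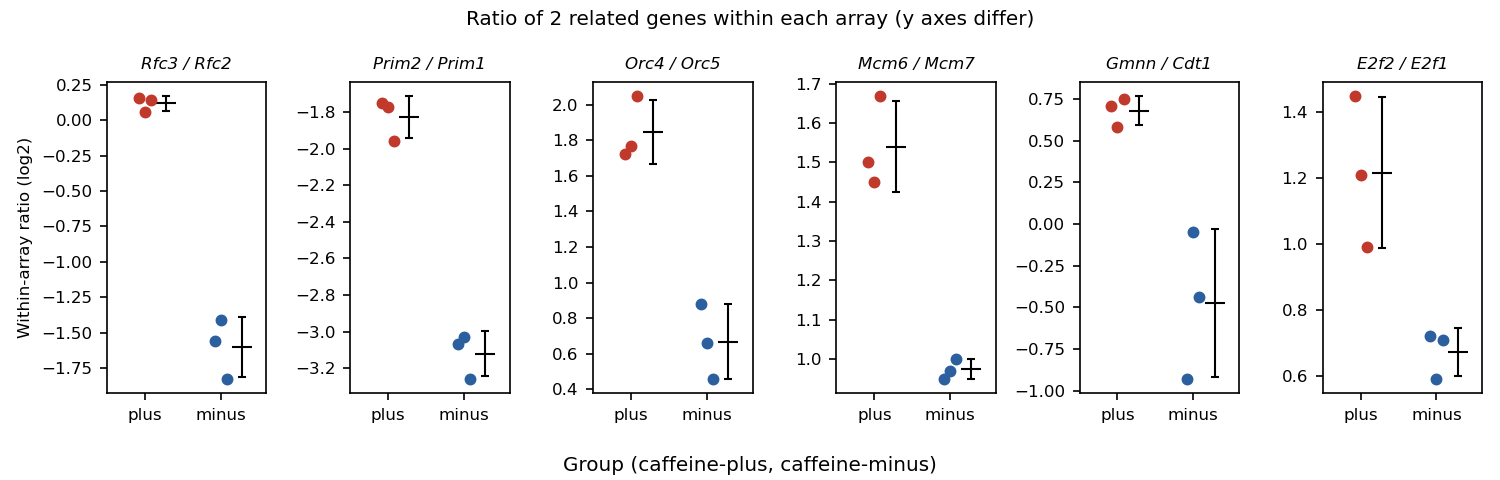
Log2 ratio of 2 genes within each array (points, 3 per group, with the mean and SD beside them) for 6 pairs picked after their values were seen, on y axes that differ between panels. The zero of each panel has no meaning because probe sets differ in brightness, and the shift between groups ran from 0.54 (E2f2 over E2f1) to 1.72 (Rfc3 over Rfc2).

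The clamp itself did not differ detectably. Pcna had log2 values of 13.45, 13.28 and 13.39 with caffeine and 13.45, 13.27 and 13.30 without it (0.03 ± 0.05, limma adjusted p = 0.69). Its dimmer probe set differed by -0.07 ± 0.04 in a fit of every probe set (limma adjusted p = 0.24), and the mean of both by -0.02. The reference table also lists pseudogenes of Pcna and Tyms, from which array signal cannot be separated here. Fen1, the nuclease that trims Okazaki fragments, had 6.75, 7.05 and 6.99 against 7.79, 7.60 and 7.63 (-0.74 ± 0.10, limma adjusted p = 1.9e-05). It was clearly lower with caffeine in every array, though its span overlaps Tmem258. Lig1, the ligase that seals the same fragments, differed by -0.09 ± 0.08 and did not pass. It was lower after quantile normalization (limma adjusted p = 0.036). Of the single-strand binding protein RPA, Rpa2 had 8.52, 8.49 and 8.56 against 8.21, 8.40 and 8.17 (0.26 ± 0.08, limma adjusted p = 0.019), and Rpa1 differed by 0.04 ± 0.08. Rpa2 no longer passed when caffeine-plus array 1 was left out (limma adjusted p = 0.06), nor without caffeine-plus array 3 (0.073) or caffeine-minus array 1 (0.051), with a range of 0.0068 to 0.073 over 16 alternatives.

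Among genes of nucleotide supply Tyms was lower and both ribonucleotide reductase genes did not pass. Tyms, which makes the thymidine nucleotide, had values of 7.42, 7.49 and 7.49 in the caffeine-plus arrays and 8.41, 8.29 and 8.29 in the caffeine-minus arrays (-0.87 ± 0.08, limma adjusted p = 3.4e-07). The difference was many times the spread within either group. Rrm1 differed by -0.08 ± 0.07 and Rrm2 by -0.10 ± 0.08, with overlapping groups. Both were lower after quantile normalization (limma adjusted p = 0.017 and 0.037).

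Cyclin E drives entry into S phase, and both of its genes were lower. Ccne2 had 9.19, 9.08 and 9.11 with caffeine and 9.74, 9.57 and 9.40 without it (-0.44 ± 0.08, limma adjusted p = 0.00037), with a span that overlaps Ints8. Ccne1 had 7.45, 7.62 and 7.44 against 7.95, 7.75 and 7.78 (-0.32 ± 0.09, limma adjusted p = 0.010), which no longer passed when caffeine-plus array 1 was left out (limma adjusted p = 0.056, range 0.0057 to 0.056 over 16 alternatives). The groups did not overlap for either gene. E2f2, an activating E2F factor, was higher, with 8.11, 7.93 and 7.79 against 7.56, 7.30 and 7.26 (0.57 ± 0.11, limma adjusted p = 0.00036). E2f1, another activator, had overlapping values of 6.66, 6.72 and 6.80 against 6.84, 6.71 and 6.55 (0.03 ± 0.10, limma adjusted p = 0.89, and -0.01 with array weights). The within-array ratio of E2f2 to E2f1 was 1.22 ± 0.23 (SD, n = 3) with caffeine and 0.67 ± 0.07 (SD, n = 3) without it.

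Other replication and S phase genes, from a list of 82 of which 81 were measured, also included rises and falls. Of the 81, 35 were higher (43.2%, against 16.2% of all genes) and 22 lower (27.2%, against 21.7% of all genes), with a median log2 difference of 0.13. Most were above the median gene level, so these shares are not matched for level. In the fit of genes above it, 37 of 78 were higher and 22 lower. Of all 9968 genes in that fit 3070 were higher and 3496 lower. There the list's share of rises was still larger than that of all genes fitted, but its share of falls was smaller. The largest rises were those of Mtbp, a partner of the origin-firing factor Ticrr (3.68-fold), and Nasp, a histone chaperone (2.8-fold). Next came Dscc1, part of an alternative clamp loader (2.33-fold), Pold3, a subunit of polymerase delta (2.15-fold), and Fbxo5, an inhibitor of the anaphase-promoting complex (2.11-fold). Among the falls was Pclaf, a small protein bound to Pcna (3.25-fold lower, its span overlapping Trip4). Chtf8, the partner of Dscc1, was 2.31-fold lower, with a span that overlaps Derpc. The nucleotide kinase gene Nme1 was 2.19-fold, the RPA subunit gene Rpa3 2.11-fold and the polymerase delta subunit gene Pold4 1.71-fold lower. These 10 genes passed under all 16 alternatives, with limma adjusted p over the alternatives between 3.4e-12 and 0.00043. Subunits of one complex again fell on both sides of 0, as in Dscc1 and Chtf8 or in Pold3 and Pold4.

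Neighbouring phases of the cell cycle differed in their counts. Of 29 measured mitosis genes 22 were higher (75.9%, against 16.2% of all genes) and 5 lower (17.2%, against 21.7% of all genes), with a median log2 difference of 0.48. Cdk1, the mitotic kinase, was 3.05-fold and the checkpoint kinase gene Ttk 2.89-fold higher, while Mad2l1 and Birc5 were 1.45-fold and 1.37-fold lower. Of 11 genes of G1 none was higher and 4 were lower by limma (36.4%, against 21.7% of all genes), 6 having an unadjusted p under 0.05, with a median of -0.17. Cdk4 and Ccnd2, a kinase and a cyclin that act before S phase, were 2.42-fold and 2.17-fold lower. The span of Cdk4 overlaps that of Tspan31. In the fit of genes above the median level, 22 of 29 mitosis genes were higher and 5 lower, and 6 of 9 G1 genes were lower. Of all 9968 genes in that fit 3070 were higher and 3496 lower. These lists stand beside the replication genes as descriptions, and the differences between lists were not tested.

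**Figure D4:**
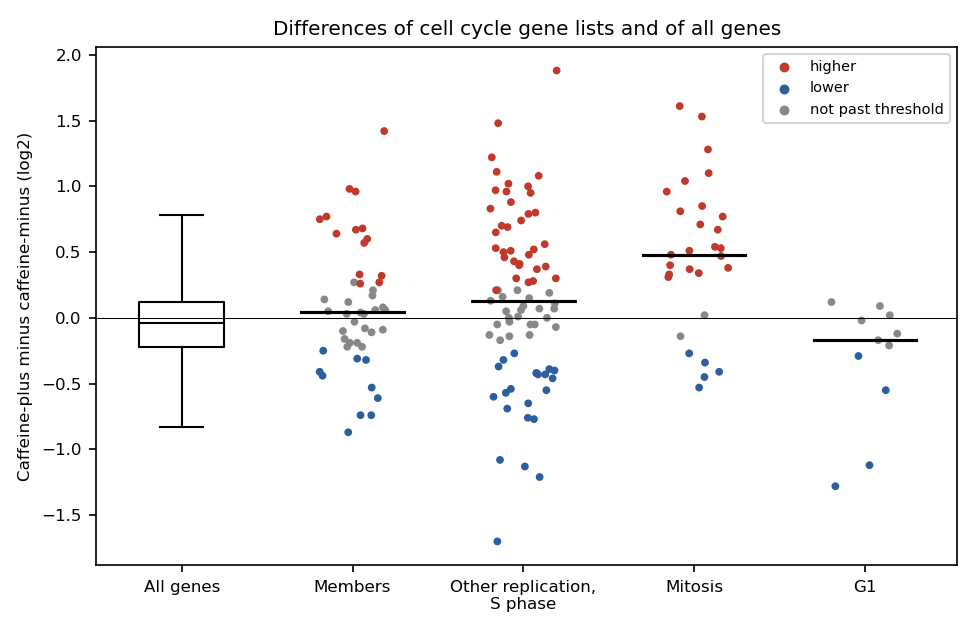
Log2 difference of each gene (points, coloured by the limma call, with the list's median as a line) in the 46 replication genes, the other replication and S phase genes, mitosis genes and G1 genes, beside a box for all 19937 genes (box 25th to 75th percentile, whiskers 5th and 95th). The medians were 0.05, 0.13, 0.48 and -0.17, against -0.04 for all genes.

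The genes that rose spanned more of the genome than those that fell. In the reference annotation the 14 higher genes had a median span of 29.8 kb (5.12 to 216 kb), the 10 lower genes 12.6 kb (5.26 to 35.1 kb) and the other 22 genes 18.2 kb (3.9 to 328 kb). Over all genes the same order held, with 36.5 kb for those higher, 13.8 kb for those lower and 15.7 kb for the rest. Across the 46 genes, span and log2 difference had a Spearman correlation of 0.30, and across 19854 genes with a span 0.19. These are correlations across genes measured in the same arrays, and genes are not independent replicates. Gmnn, Rfc3 and Orc6, which were among the larger rises, have short spans of 8.39 to 10.1 kb. The longest member, Pola1 (328 kb), differed by 0.21 and Orc5 (63.9 kb) by -0.22, and neither passed.

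**Figure D5:**
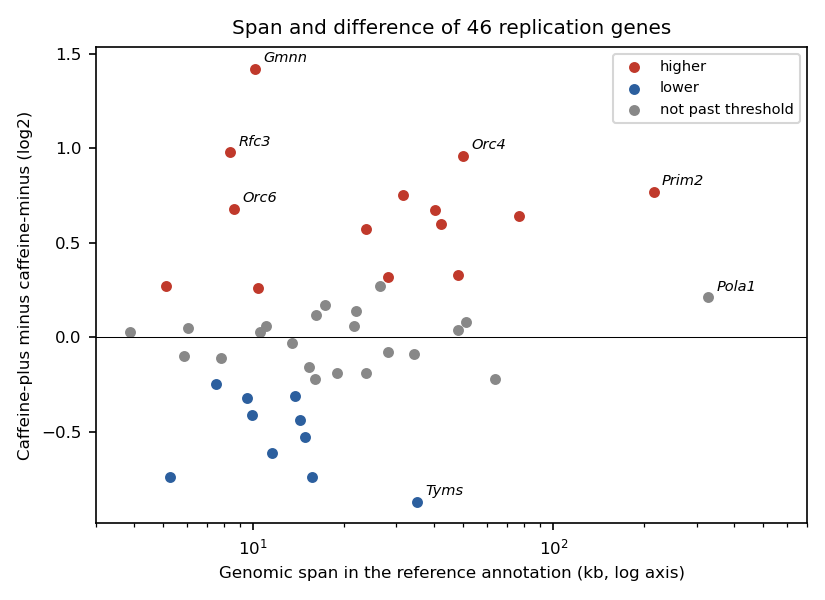
Genomic span in kb (log axis) against the log2 difference for the 46 genes, coloured by the limma call. Of the long genes Prim2 (216 kb) and Orc4 were higher and Pola1 (328 kb) did not pass, while Gmnn, Rfc3 and Orc6 were higher with short spans and Tyms (35.1 kb) was lower.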

How the data were processed

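RNA of 6 samples was measured on 1 array each, 3 per group, and the number of arrays limits the precision. Per the labels' protocols, 300 ng total RNA was labelled with the Encore Biotin Module. The authors deposited 1 value for each of 34760 probe sets, taken here as log2 because no header states the unit and the values run from 1.90 to 13.98. How they were summarized and normalized: not given in the sources used here. Array values cannot show a change in total mRNA. Scanner files and detection calls were not used. Of the probe sets 21640 have 1 gene symbol in the platform annotation, 1321 have several and 11799 have none listed. Of the 21640, 21553 were matched by gene ID to the reference table of GRCm38.p6, which gave current symbols, spans and promoters. The array's build is not given, so no probe coordinates are printed. Each gene was represented by its brightest probe set by mean over 6 arrays.

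The comparison used lmFit and eBayes with an intensity trend (limma 3.58.1, R 4.3.3), with no filter on low values, two-sided, with Benjamini-Hochberg adjustment over 19937 genes and a threshold of 0.05. The script was tested on simulated data of 19937 genes with 3 arrays per group. It recovered 58% of log2 changes of 0.5 and 95% of changes of 1, with 3.16% of calls false. Far fewer genes were changed there than passed in the real arrays, and the genes were drawn independently. These rates check the script and do not measure the recovery in this comparison. The members and lists were chosen with earlier results of these data known. Array values are given for the 24 members with the smallest p, and the 5 largest rises and falls of the other replication genes (2 for mitosis and G1) are named. Alternatives were the replicate block, quantile normalization, centring on array medians, filters on dim genes (above the median gene, above a log2 value of 6), other probe set summaries, robust variance, no intensity trend, weighted arrays, and leaving out each array.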

Additional observations from a re-analysis of the deposited data

How the results depend on the processing

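Of the 24 replication genes that passed, 20 (12 higher and 8 lower) also passed under all 16 alternatives. The exceptions were Cdt1, Mcm7, Rpa2 and Ccne1. Over the 10 alternatives that keep all arrays, 13 to 15 members were higher and 9 to 15 lower, the 15 falls coming from quantile normalization, and the list's median ran from 0.05 to 0.10. Leaving out 1 array gave 12 to 15 higher, 9 to 12 lower and a median of 0.02 to 0.08. With centred arrays the median of all genes moved from -0.04 to 0.02. Some differences near 0, none past the threshold on either side, changed sign. Mcm4 was at 0.03 with centred arrays and Gins4 at -0.05 after quantile normalization. Pcna was at -0.02 for the mean of its probe sets, and E2f1 at -0.01 with array weights. Leaving out 1 array gave -0.07 to 0.01 for Mcm4, -0.0086 to 0.17 for Gins1, -0.0095 to 0.11 for Pold2, -0.0028 to 0.09 for Pcna and -0.05 to 0.10 for E2f1. The shared replicate numbers were not taken as pairs, since nothing in the labels pairs them. Deviations of same-numbered arrays correlated at -0.028, 0.19 and 0.293, and those of differently numbered arrays at -0.277 to 0.125. These values do not settle whether the arrays were paired. With a replicate block 15 members were higher and 10 lower, the added gene being Pole2, and no other member's call changed. Probe sets near background understate a change.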

Other observations

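Further families within the list of other replication genes are given as values, picked out after they were seen. In the E2F and retinoblastoma network, E2f8, a repressor, was 1.48-fold higher (log2 difference 0.56 ± 0.08, n = 3 arrays per group, limma adjusted p = 2.1e-05). E2f4 (0.41 ± 0.09), E2f6 (0.37 ± 0.10), Rbl2 (0.48 ± 0.07) and Rb1 (0.30 ± 0.09) were higher as well. The E2F partner genes Tfdp1 (-0.39 ± 0.07) and Tfdp2 (-0.42 ± 0.08) were lower. E2f3, E2f5, E2f7 and Rbl1 differed by 0.07 ± 0.14, 0.00 ± 0.09, -0.03 ± 0.09 and 0.19 ± 0.07 and did not pass.

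Genes that guard the replication fork are given next. Clspn, a checkpoint adaptor, was 1.94-fold and the kinase gene Chek1 1.61-fold higher. Of the clamp that signals stalled forks, Hus1 was higher (0.46 ± 0.07), Rad1 was lower (-0.65 ± 0.12) and Rad9a did not pass (-0.13 ± 0.09), while Rad17, which loads that clamp, was 1.73-fold higher. Topbp1, an activator of the Atr kinase, was higher (0.21 ± 0.06) and the fork protection gene Tipin was lower (-0.57 ± 0.07). Its partner Timeless (0.06 ± 0.09), Atr (0.11 ± 0.09) and the Atr partner Atrip (0.05 ± 0.09) did not pass. Among genes of histone supply, Slbp, which binds histone mRNA, was 1.96-fold and the chaperone gene Asf1a 1.84-fold higher, while Asf1b differed by -0.05 ± 0.10 and did not pass. Of the chromatin assembly factor, Chaf1a was higher (0.27 ± 0.09) and Chaf1b was 1.38-fold lower.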
